A study of Mus musculus with 3 samples.

Results

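The matrix metalloproteinases are zinc-dependent proteases that cut collagens and other components of the extracellular matrix. The 10 genes described here, Mmp2, Mmp3, Mmp8, Mmp9, Mmp10, Mmp11, Mmp12, Mmp13, Mmp14 and Mmp19, were picked by gene name from the 43472 rows of the expression table. RNA-seq was performed on scratch-wounded primary fibroblasts, freed with collagenase from the tail tips of C57BL/6 mice and given the soluble fraction of a skin micrograft (MG, diluted 1 in 10) together with PD0325901, a MEK inhibitor used at 1 μM, for 5 h. The study tested the role of ERK signalling and of the transcription factor AP-1 in MG-induced cell migration and matrix remodelling. The 3 libraries are labelled as replicates 1, 2 and 3 of this 1 condition, and all 3 carried both the MG and the inhibitor. Levels without the inhibitor were not analysed here. The values below describe how these genes stood under MG + PD0325901 and how far they varied between replicates. Whether the replicates came from different mice or separate cultures is not given in the sources used here.

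Most of these enzymes are made as inactive proenzymes, whose prodomain is removed by other proteases, and their activity is held in check by the tissue inhibitors of metalloproteinases, the TIMPs. In skin wounds, fibroblasts use collagenases and stromelysins to clear and rearrange collagen, while the gelatinases degrade cut collagen and basement membrane. Several of the inducible genes lie together in 1 gene cluster and have promoters with binding sites for AP-1, a dimer of Fos and Jun family proteins that acts downstream of ERK.

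The libraries had the profile of fibroblasts. All 10 fibroblast markers examined, such as Col1a1, Pdgfra and Dcn, were detected in every library. Their summed level lay between 369737 and 544686 normalized counts. Single markers were not equally even between replicates 1, 2 and 3. Thy1 had 2031, 15760 and 1652 normalized counts and Lum 5073, 289 and 1164, while Pdgfrb had 2894, 2942 and 3129 and Vim 85416, 94183 and 104067. Keratinocyte markers summed to between 443 and 1756 normalized counts, with Sfn the most abundant, and endothelial markers to between 109 and 298. Of the endothelial markers, Tek had 6.95, 185 and 2.37 normalized counts. Normalized counts are read counts divided by 1 size factor for each library, and the libraries held from 17244505 to 27037783 reads on genes. Replicate 2 stood further from the other libraries than they did from each other. Two-sided exact binomial tests on reads (Benjamini-Hochberg adjusted over all genes tested, threshold 0.05, with a difference of more than 2-fold) called 9.61% of genes higher and 11% lower in replicate 2 than in replicate 1. The same tests called 7.29% higher and 9.33% lower in replicate 3 than in replicate 2, but 3.69% higher and 5.71% lower in replicate 3 than in replicate 1. Such tests set 1 library against another and say nothing of conditions. Without molecular identifiers on the reads, they and all intervals below take account of counting error alone.

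Under MG + PD0325901, 9 of the 10 matrix metalloproteinase genes were detected, meaning that no library was below 10 normalized counts, against 60.1% of the 20322 genes with reads. Mmp8 was the exception. The 10 genes together took 0.196%, 0.201% and 0.289% of the reads on genes in replicates 1, 2 and 3. Mmp14, Mmp3, Mmp13 and Mmp2 supplied 91.8% ± 1.02 (SD, n = 3) of these normalized counts. These are, in this order, a membrane-bound activator, a stromelysin, a collagenase and a gelatinase.

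The promoters of the genes from the cluster on chromosome 9 are shown first, because AP-1 is the factor the study follows. This cluster holds 10 of the 23 Mmp genes of the table between positions 7272514 and 7699585 (GRCm38), a span of 427 kb, and 5 of them, Mmp13, Mmp12, Mmp3, Mmp10 and Mmp8 in that order, are among the genes described here. The RefSeq promoter table used here (GRCm38.p6) held 7 of the 10 genes, with a second start for Mmp12. Mmp2, Mmp9 and Mmp19 were not among them. In the 250 bases before the start, the AP-1 heptamer TGAGTCA or its reverse complement TGACTCA occurred in Mmp3, Mmp10 and Mmp13 and before the second start of Mmp12, against 4.46% of the 32851 promoter windows of the genome searched in the same way. The match began 46 bases before the start in Mmp3, 63 in Mmp10, 35 in Mmp13 and 44 in Mmp12. In Mmp3, Mmp10 and Mmp13 a TATAAA hexamer followed it on the downstream side, 32, 27 and 12 bases after its last base, and 12.4% of all windows held this hexamer on either strand. Mmp1a, Mmp1b and Mmp7, the other genes of the cluster with the heptamer, had the same arrangement with 38, 37 and 30 bases between the motifs. The share of all windows with both motifs in this order was not computed. Distances count from the annotated starts, which were not checked against these reads. No match was found before the starts of Mmp8, Mmp11 and Mmp14. The PEA3 hexamer AGGAAG (or CTTCCT), a site type bound by Ets factors, occurred in Mmp3, Mmp8, Mmp13 and Mmp14 and before the first start of Mmp12, but not in Mmp10 or Mmp11, and 29.5% of all windows held it. A match is a string of letters and not a measured binding site. For Mmp13, the study also reported that the AP-1 member Fra-1 binds its promoter, from public ChIP-seq data of mouse embryonic fibroblasts. The 5 windows below give, 5′ to 3′ on the strand of the gene, the 4 genes with the heptamer and Mmp14, the gene with the most reads, which lacks it, and capitals mark the AP-1 heptamer. The window of Mmp12 belongs to its second start, which lies inside the annotated gene.
Mmp3 (chr9:7445572-7445821, plus strand): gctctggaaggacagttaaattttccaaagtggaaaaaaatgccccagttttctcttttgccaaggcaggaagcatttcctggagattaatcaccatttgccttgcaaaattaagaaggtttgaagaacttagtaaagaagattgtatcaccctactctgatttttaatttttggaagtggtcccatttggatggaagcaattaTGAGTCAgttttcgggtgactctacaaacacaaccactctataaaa
Mmp10 (chr9:7502092-7502341, plus strand): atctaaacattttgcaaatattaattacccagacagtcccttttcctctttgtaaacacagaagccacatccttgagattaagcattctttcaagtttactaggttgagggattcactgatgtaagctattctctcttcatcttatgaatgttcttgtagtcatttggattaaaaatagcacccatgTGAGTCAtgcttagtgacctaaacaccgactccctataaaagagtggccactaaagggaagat
Mmp12 (chr9:7347124-7347373, plus strand): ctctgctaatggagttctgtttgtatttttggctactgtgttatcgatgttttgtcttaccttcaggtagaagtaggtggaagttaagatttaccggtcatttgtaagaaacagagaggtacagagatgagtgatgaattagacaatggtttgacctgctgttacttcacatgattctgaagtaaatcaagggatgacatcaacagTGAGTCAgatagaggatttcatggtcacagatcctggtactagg
Mmp13 (chr9:7272264-7272513, plus strand): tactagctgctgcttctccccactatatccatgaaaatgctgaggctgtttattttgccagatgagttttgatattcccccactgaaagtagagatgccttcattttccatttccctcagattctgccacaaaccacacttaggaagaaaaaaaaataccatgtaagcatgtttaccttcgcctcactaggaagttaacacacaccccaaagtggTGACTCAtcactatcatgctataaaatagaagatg
Mmp14 (chr14:54431348-54431597, plus strand): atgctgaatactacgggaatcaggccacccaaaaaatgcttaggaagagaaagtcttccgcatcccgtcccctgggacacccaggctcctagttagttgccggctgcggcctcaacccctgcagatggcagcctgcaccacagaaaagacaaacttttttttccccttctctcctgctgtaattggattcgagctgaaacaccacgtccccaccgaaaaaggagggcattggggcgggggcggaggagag

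**Figure D1:**
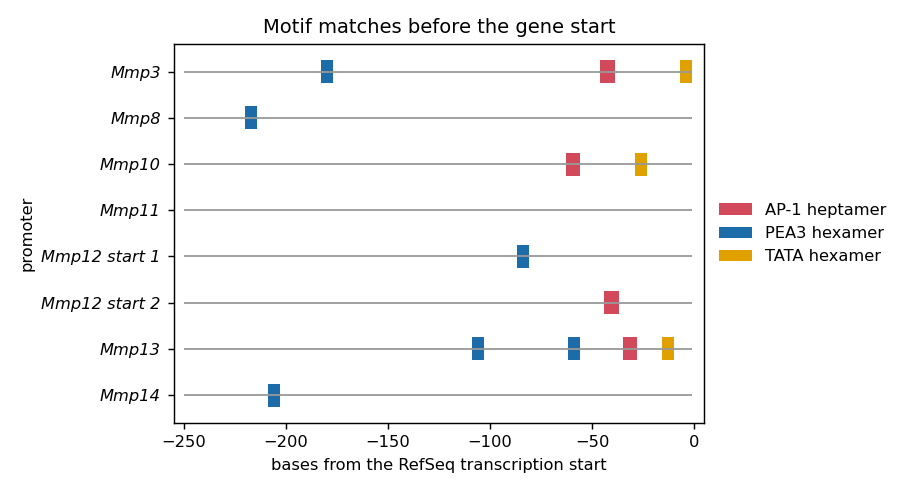
Positions of motif matches in the 250 bases before each RefSeq start, in bases from the start (x axis), with 1 line for each of the 8 starts of 7 genes. Bars mark matches of the AP-1 heptamer, the PEA3 hexamer and the TATA hexamer, and the AP-1 matches of Mmp3, Mmp10, Mmp12 and Mmp13 begin between 63 and 35 bases before the start.

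Levels of different genes were compared after division by exon length, as normalized counts per kb of the union of annotated exons. Mmp3 ranked first and Mmp8 last. The order by mean was Mmp3, Mmp13, Mmp14, Mmp2, Mmp10, Mmp19, Mmp11, Mmp9, Mmp12 and Mmp8, and ranks 1, 2 and 3 were held by the same genes in each library. Mmp3 reached 5358 ± 2420 normalized counts per kb (SD, n = 3) and ranked 156 among the 18858 genes with reads and an annotated length. Mmp12 had 5.92 ± 3.93 per kb, so that the detected genes spanned from near the top of the transcriptome to below its median of 26.9 per kb. Of the 9 pairs of neighbours in this order, 4 had ranges over the 3 libraries that did not overlap, namely Mmp14 above Mmp2, Mmp10 above Mmp19, Mmp19 above Mmp11, and Mmp12 above Mmp8. The ranges of Mmp3 and Mmp13, of Mmp13 and Mmp14, of Mmp2 and Mmp10, of Mmp11 and Mmp9, and of Mmp9 and Mmp12 overlapped. Mmp2 stood above Mmp10 in 2 of 3 libraries, and Mmp11 above Mmp9 in 2 of 3. Without replicate 3 all 9 pairs of neighbours were separate, and without replicate 2 Mmp9 moved above Mmp11. The length matters for Mmp14, whose annotated exons cover 5960 bases while its longest transcript has 3238. With the longest transcript as length, Mmp14 had 5189 ± 1123 per kb (SD, n = 3) and moved above Mmp13. Its mean was then close to that of Mmp3, and in replicate 2 it exceeded Mmp3, with 4900 against 3108 per kb. Without division by length Mmp14 ranked first.

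**Figure D2:**
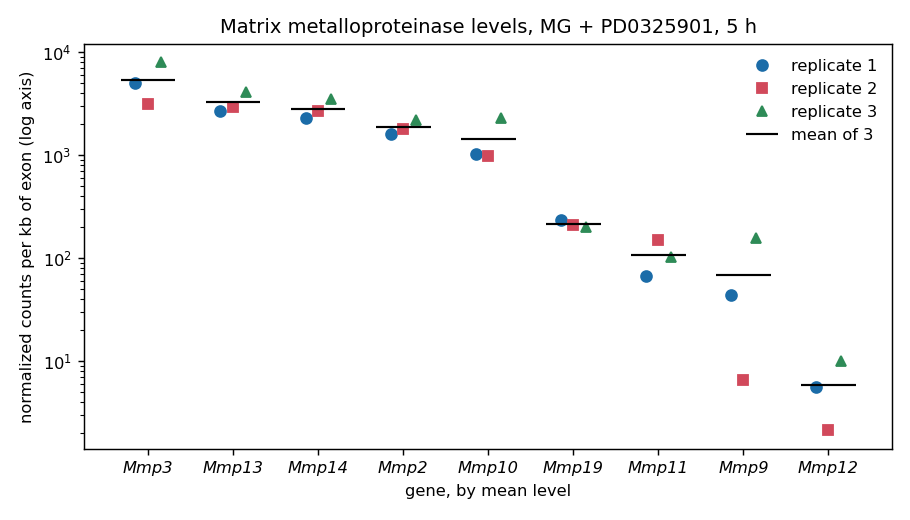
Level of the 9 detected genes in normalized counts per kb of exon (log axis), 1 marker for each replicate and a line for the mean of the 3. Mmp3, Mmp13, Mmp14, Mmp2 and Mmp10 lie between 982 and 7918 per kb, Mmp9 and Mmp12 between 2.14 and 155, and the replicates of Mmp9 spread furthest.

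Of the genes named stromelysins, Mmp3 and Mmp10 were abundant and highest in replicate 3, while Mmp11 was lower and highest in replicate 2. The enzymes of Mmp3 and Mmp10 cut proteoglycans, fibronectin and laminin and activate other proenzymes. Mmp3 (chromosome 9, 7445822 to 7455975, plus strand, GRCm38), stromelysin-1, stood at 9094, 5597 and 14260 normalized counts in the 3 replicates, given here and below in the order 1, 2, 3. Replicate 3 was 2.55-fold above replicate 2, a log2 difference of 1.35 (95% interval 1.31 to 1.39, Clopper-Pearson, counting error only). Replicate 1 lay between them, 1.62-fold above replicate 2. Mmp10 (chromosome 9, 7502352 to 7510240, plus strand), stromelysin-2 and the nearest relative of Mmp3 in sequence, had 1773, 1690 and 3943 normalized counts. Here replicates 2 and 1 did not differ beyond counting error, with a log2 difference of -0.07 (95% interval -0.15 to 0.02, adjusted p = 0.149 by the exact binomial test), and replicate 3 was more than 2-fold above each. Of all 50-base stretches in their annotated transcripts, Mmp3 and Mmp10 shared 140 exactly, 7.99% of those of Mmp3 and 8.37% of those of Mmp10. The authors kept uniquely aligned reads, so a read lying wholly in such a stretch would be counted for neither gene. Per kb, Mmp3 exceeded Mmp10 by 4.90-fold, 3.17-fold and 3.46-fold in the 3 libraries.

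Mmp11 (chromosome 10, 75923222 to 75936496, minus strand), stromelysin-3, is activated inside the cell by furin-type proteases and lies outside the chromosome 9 cluster. Its normalized counts were 186, 416 and 284. It was the only detected gene of the 10 that was highest in replicate 2, where 40.3% of genes with a mean of at least 10 were highest, and it was 2.24-fold above replicate 1 there (adjusted p = 1.34e-25, exact binomial test). Exons of Chchd10 on the opposite strand overlap Mmp11 over 155 bases, and whether reads were counted by strand is not given in the sources used here.

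Of the collagenases, which cleave fibrillar collagen, Mmp13 was abundant and Mmp8 was essentially without reads. Mmp13 (chromosome 9, 7272514 to 7283331, plus strand), collagenase-3, had 7195, 7901 and 10894 normalized counts. Its mean was 8663 ± 1964 (SD, n = 3). Replicate 3 was the highest. Replicate 2 was 1.10-fold above replicate 1. Mmp8 (chromosome 9, 7558456 to 7568485, plus strand), the collagenase stored in neutrophil granules, had 0, 2 and 1 reads. A count of 0 allows up to 2.61 normalized counts in replicate 1. No further statement on Mmp8 was possible at this depth. The paralogs Mmp1a and Mmp1b, the mouse counterparts of interstitial collagenase, missed the minimum in at least 1 library, with at most 11.3 normalized counts for Mmp1a and at most 46.2 for Mmp1b. On either strand, they shared 165 and 276 of their 50-base stretches with other Mmp genes. Those of Mmp1b include stretches shared with Mmp12, which overlaps it on the opposite strand and shared 111 with other Mmp genes, most with Mmp1b.

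The gelatinases behaved differently from each other. Mmp2 (chromosome 8, 92827291 to 92853420, plus strand), gelatinase A, a gene that mesenchymal cells express constitutively, had 5406, 6024 and 7452 normalized counts, with a range of 1.38-fold. Mmp9 (chromosome 2, 164940780 to 164955850, plus strand), gelatinase B, which is inducible in many cell types and abundant in leukocytes, had 157, 23.3 and 550 normalized counts, resting on 181, 33 and 464 reads. The 3 libraries did not come close to each other for Mmp9. Replicate 3 was 23.7-fold above replicate 2, a log2 difference of 4.56 (95% interval 4.05 to 5.12, adjusted p = 4.94e-153, exact binomial test). The SD of log2(normalized count + 1) of Mmp9 was 2.27, above that of 99.8% of the 12204 detected genes, whose median was 0.30. Its biological coefficient of variation estimated by edgeR was 79.4%, where the trend at its level was 35.7%. The mean of Mmp9 was 243 ± 274 (SD, n = 3) and 90.2 without replicate 3, so no single level can be given for this gene. Per kb, Mmp9 stood at 0.0277, 0.00368 and 0.0703 of Mmp2 in replicates 1, 2 and 3.

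Mmp12 (chromosome 9, 7344381 to 7369499, plus strand), the metalloelastase best known from macrophages, followed the same order as Mmp9 at a low level. It had 40.8, 15.5 and 72.3 normalized counts from 47, 22 and 61 reads. Replicate 3 exceeded replicate 2 by 4.66-fold (log2 difference 2.22, 95% interval 1.5 to 3.00, adjusted p = 9.86e-11, exact binomial test), while the 22 reads of replicate 2 carry a counting error of 21.3%. Its mean was 42.9 ± 28.5 (SD, n = 3) and 28.2 without replicate 3. Mmp12 and Mmp1b overlap on opposite strands over 157 exonic bases.

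Since Mmp8, Mmp9 and Mmp12 are also leukocyte genes, leukocyte markers were read in the same libraries. Of 10 macrophage markers 9 were in the table and 4 were detected, and their summed level was 391, 428 and 1201 normalized counts in replicates 1, 2 and 3. Lyz2, a lysozyme gene and the most abundant of these markers, had 123, 62.7 and 601 normalized counts, the same order of the libraries as Mmp9 and Mmp12. Cd14 had this order as well, with 174, 141 and 330, and so did 16% of genes with a mean of at least 10. The other detected markers, Csf1r with 57.3, 179 and 161 and Cd68 with 22.6, 33.1 and 27.3, were highest in replicate 2 and lowest in replicate 1. Of the markers below the minimum, Itgam had 0, 3 and 7 reads, Tyrobp 0, 3 and 13, Fcer1g 12, 3 and 17, and Laptm5 2, 7 and 31. These were all highest in replicate 3, and Fcer1g was lowest in replicate 2. Ptprc, which encodes the pan-leukocyte antigen CD45, had 2, 1 and 1 reads, and no macrophage marker was at 0 in replicates 2 and 3. Of 10 neutrophil markers 1 was detected, they summed to between 53.6 and 122 normalized counts, and S100a9, Mpo, Ngp and Retnlg were without reads in any library. Whether leukocyte RNA had a part in the levels of Mmp9 and Mmp12 was not tested, and in such bulk samples fewer cells of a type and less RNA per cell cannot be told apart.

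Mmp14 had an SD of log2(normalized count + 1) of 0.30, as the median of detected genes, and Mmp19 had 0.12, above that of only 12.0% of them. Mmp14 (chromosome 14, 54431612 to 54445364, plus strand) encodes MT1-MMP, a membrane-anchored collagenase that activates the Mmp2 proenzyme at the cell surface with the help of Timp2. It collected more reads than any other Mmp gene, with 13724, 15866 and 20812 normalized counts. Replicate 3 was highest and the range was 1.52-fold. Mmp14 and its substrate Mmp2 kept a proportion that ranged over 1.10-fold, with 1.44, 1.49 and 1.58 times as much Mmp14 as Mmp2 per kb. The ratio of Mmp13 to Mmp2 per kb was as even, at 1.68, 1.65 and 1.84, whereas that of Mmp3 to Mmp2 ranged from 1.74 to 3.58. Mmp19 (chromosome 10, 128790910 to 128800824, plus strand), a secreted enzyme that acts on basement membrane proteins, had 828, 741 and 704 normalized counts, the narrowest range at 1.18-fold. It was the only detected gene of the 10 with its lowest value in replicate 3. Exons of Tmem198b and Gm47093 overlap 1001 bases of Mmp19 exon on the opposite strand. With both strands searched, 24.7% of its 50-base stretches also occur in other genes, Tmem198b most of all, and the overlap itself yields such stretches. Whether the overlap touched the count of Mmp19 depends on the strand setting, which is not given in the sources used here.

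Replicate 3 was the highest library for 7 of the 9 detected genes, namely Mmp2, Mmp3, Mmp9, Mmp10, Mmp12, Mmp13 and Mmp14, against 27.8% of the 13154 genes with a mean of at least 10. Replicate 2 was the lowest for 4 of 9, where the background was 37.5%. The combination of both, replicate 3 highest and replicate 2 lowest, was found in Mmp3, Mmp9, Mmp10 and Mmp12, against 16% of genes. In Mmp2, Mmp13 and Mmp14 replicate 3 was also highest but replicate 1 was lowest. The order of the 3 libraries was the same for all 9 genes after scaling to equal totals and after TMM scaling. On values with 1 added, the range from the lowest to the highest library passed 2-fold in 5 of 9 genes (Mmp3, Mmp9, Mmp10, Mmp11 and Mmp12), against 26.5% of genes. The count was 2 without replicate 2 (Mmp9 and Mmp10), 3 without replicate 3 (Mmp9, Mmp11 and Mmp12) and 4 without replicate 1. These shares describe a short list chosen by name with earlier results of these data known, and no test was made of them.

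**Figure D3:**
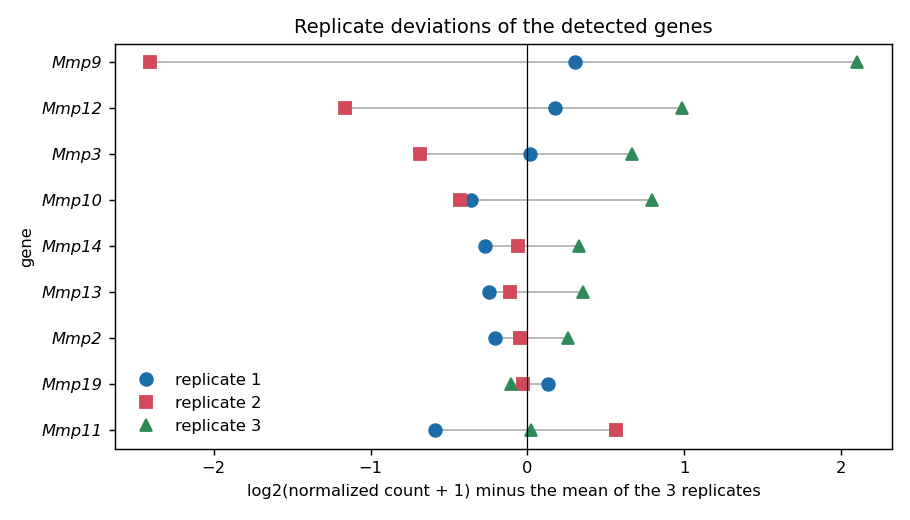
Deviation of each replicate from the mean of the 3, on the scale log2(normalized count + 1), for the 9 detected genes (rows), with a line from the lowest to the highest replicate. Replicate 3 lies furthest right in 7 rows, and in Mmp9, Mmp12, Mmp3 and Mmp10 replicate 2 lies furthest left.

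The exact binomial tests between libraries were then read for the same genes. In replicate 3 against replicate 2, 4 of the 9 genes tested were called higher (Mmp3, Mmp9, Mmp10 and Mmp12, background 7.29%) and none lower (background 9.33%), with a median log2 difference of 0.46 where that of all genes tested was -0.02. In replicate 3 against replicate 1, Mmp9 and Mmp10 were called higher (background 3.69%) and none lower (background 5.71%), with a median of 0.61 against -0.02. Replicate 2 against replicate 1 gave 1 higher gene, Mmp11 (background 9.61%), and 2 lower, Mmp9 and Mmp12 (background 11%), with a median of -0.07 against 0.02. Mmp8 had too few reads to be tested. Differences under 2-fold could also exceed counting error in these deep libraries. Mmp2, for example, was 1.11-fold higher in replicate 2 than in replicate 1 with an adjusted p of 2.43e-10 in the exact binomial test, which again covers counting error alone.

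**Figure D4:**
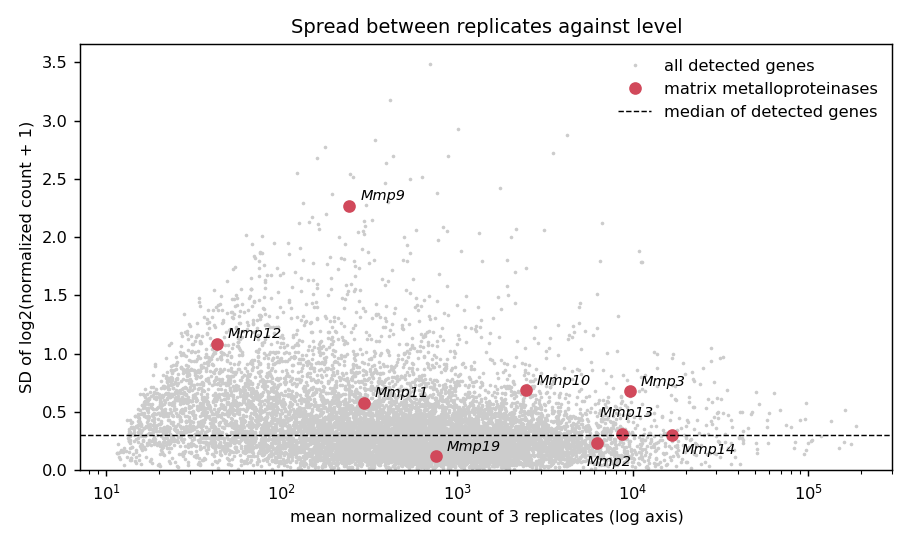
SD of log2(normalized count + 1) over the 3 replicates (y axis) against the mean normalized count (log x axis) for 12204 detected genes (grey) and the 9 detected matrix metalloproteinases (red). The dashed line is the median of detected genes, 0.30, and Mmp9 at 2.27 and Mmp12 at 1.09 stand furthest above it while Mmp19 at 0.12 lies below.

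By mean level per kb, the other Mmp genes all lay below Mmp10. Of these 13, 6 were detected, against 60.1% of genes with reads, a background that leaves out genes without a read, as 2 of the 13 were. The detected genes were the membrane-type or membrane-linked Mmp15, Mmp16, Mmp17, Mmp23 and Mmp24 and the secreted Mmp28. Mmp23 had the highest level of these, 741 ± 252 normalized counts per kb (SD, n = 3), by mean between Mmp10 and Mmp19. In replicate 2 Mmp23 stood above Mmp10, with 1003 against 982 per kb. It had 1681, 2346 and 1172 normalized counts and so was highest in replicate 2, as were Mmp16 and Mmp17, which makes 3 of the 7 other Mmp genes with a mean of at least 10, against a background of 40.3%. Mmp20 and Mmp21 had no read. Of the same 7 genes, 1, Mmp1b, was highest in replicate 3 and lowest in replicate 2, against a background of 16%.

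Per kb, Timp1 and Timp2 exceeded every Mmp gene in all 3 libraries, and Timp3 exceeded Mmp3 in replicates 1 and 2. In replicate 3 Timp3 had 7678.5 per kb against 7918 for Mmp3. This comparison depends on the length, because the annotated exons of Timp3 cover 8144 bases and its longest transcript has 4722. Exons of Syn3 overlap 1733 of these exonic bases on the opposite strand. Timp1, a secreted inhibitor of most soluble enzymes of the family, reached 62668, 27514 and 60429 normalized counts, Timp2 had 40031, 34907 and 66138, and Timp3, which binds to the matrix, had 72294, 40662 and 62534. All of these were lowest in replicate 2, as were 37.5% of genes. Per kb, Timp1 stood at 56536 ± 22164 (SD, n = 3), the rank of 5 among all genes, and Mmp3 reached 0.0716, 0.1003 and 0.116 of its level in replicates 1, 2 and 3. The ratio of Mmp14 to Timp2 per kb was 0.224, 0.297 and 0.206. Timp4 had 5 reads in replicate 2 and none elsewhere, and Reck, a membrane-bound inhibitor, had 394 ± 121 normalized counts (SD, n = 3). Of the 6 inhibitor genes examined 4 had enough reads to be tested between libraries, and Timp1 was the only 1 called. It was lower in replicate 2 than in replicate 1 (background 11%) and higher in replicate 3 than in replicate 2 (background 7.29%). These are transcript levels, and amounts or activities of the proteins were not measured in these files.

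**Figure D5:**
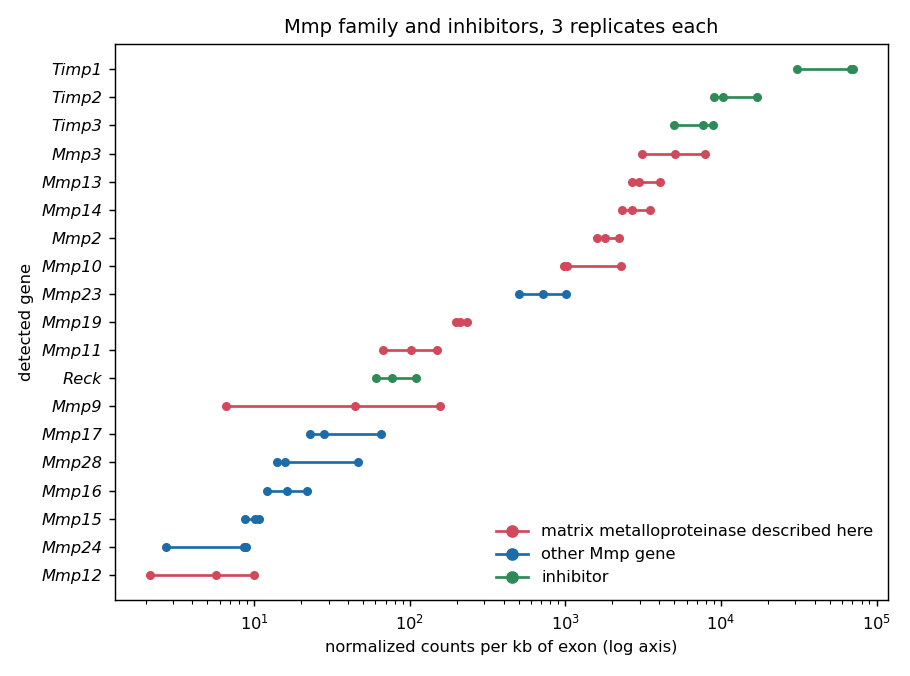
Level in normalized counts per kb of exon (log x axis) of the detected Mmp genes and inhibitors (rows), 1 point for each of the 3 replicates and a line over their range. Timp1, Timp2 and Timp3 lie at the top by mean, followed by Mmp3, Mmp13, Mmp14, Mmp2 and Mmp10, and Mmp9 has the widest line.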

How the data were processed

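Stranded mRNA libraries were sequenced as single-end reads. The authors aligned the reads to mm10 with TopHat (version 2.0.13 in the submitters' notes), kept unique alignments and counted reads per gene with HTSeq 0.5.3p3. The gene annotation, the strand setting and the DESeq version are not given in the sources used here. The deposited signal is normalized counts, read counts divided by 1 size factor per library. All values (100% in each library, within 0.01 reads) were a whole number of steps of the size that 1 read gives, so reads were recovered by division and summed to 22540518, 27037783 and 17244505. A further 3 columns of values matched no labelled sample and were not used.

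Means and SDs are of normalized counts, and 1 was added before taking log2. For each pair of libraries, genes with 10 or more recovered reads, summed over both, went into a two-sided exact binomial test each, with p-values adjusted by the Benjamini-Hochberg method. The test was first checked on simulated counts with counting error alone, so the check says nothing of the variation between replicates in these data. TMM factors and coefficients of variation came from edgeR (4.0.16, under R 4.3.3), and all other values from Python 3.11.15 (scipy 1.17.1, pandas 2.3.3, numpy 2.4.6). Gene positions and exons came from GENCODE M21 (GRCm38, the assembly of mm10), promoter windows from RefSeq. The genes, the lists of inhibitors, activators, AP-1 genes and cell type markers, and the tests were chosen with earlier results of these data known. All genes picked by name are accounted for, and of the lists only those genes are named on which a result for them turns or that stand alone in their list (the Timp genes, Mmp1a, Mmp1b, Fosl1 and Jun by rule). The other Mmp genes, Reck, Plau, Plaur, Plat, Plg, Furin, Pcsk5, Pcsk6, Bsg, Junb, Jund, Fosb and the single markers were named after their values were seen. Alternatives were other scalings, pseudocounts, minimums, fold limits and lengths, and each replicate left out.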

Additional observations from a re-analysis of the deposited data

How the results depend on the processing

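No paired analysis was possible because the files hold 1 labelled condition without a second group. With 3 replicates, leaving 1 out cannot move a mean by 1 SD, so the 30 means of genes so obtained say nothing of stability, and without replicate 3 Mmp9 went from 243 to 90.2 and Mmp12 from 42.9 to 28.2. Of the other 47 recomputed values, 40 stayed within 1 SD of the reported mean or within 1.5 times the reported count, and 7 moved further. The 40 include the means of genes under equal totals and TMM. Those factors differed from the authors' by at most 0.0547 in log2, too little to move any of these means by 1 SD. The count of 40 is thus raised by values that could not move. The number of genes with a range over 2-fold, 5 as reported, was 2 at a limit of 3-fold and 2 to 4 with 1 replicate left out, lowest without replicate 2. Without a required fold, the tests between libraries called 8 genes in replicates 1 and 2, 9 in replicates 1 and 3 and 8 in replicates 2 and 3. Such counts cannot fall when the limit is dropped, and the test covers counting error alone. Neighbours in the order per kb with separate ranges, 4 as reported, numbered 4 to 9 with 1 replicate left out, most without replicate 3, where a range spans fewer samples. That no mean of a gene moved by over 1 SD with equal totals or TMM follows from the closeness of the factors. Depth limited Mmp8 and, less, Mmp12.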

Other observations

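Genes that act upstream of the metalloproteinases were read from the same libraries. Plau, which encodes the urokinase that turns plasminogen into plasmin, a protease able to activate several of the proenzymes, stood at 28792, 10676 and 44245 normalized counts in the 3 replicates. Its receptor gene Plaur had 12284, 5953 and 14483. Both shared the order of Mmp3, with replicate 3 highest and replicate 2 lowest, against 16% of genes with a mean of at least 10. Pcsk5 and Pcsk6, also listed as activators, had this order too, while the listed inducer Bsg was highest in replicate 1 and lowest in replicate 2. Plat, the tissue-type activator, went the other way, with 2640, 4872 and 1536 normalized counts. Of the 9 activator genes listed, 7 were tested between libraries. In replicate 3 against replicate 2 the exact binomial test called Plau and Plaur higher (background 7.29% of genes) and Plat lower (background 9.33%). Plau and Plaur were also called lower in replicate 2 than in replicate 1 (background 11%). In replicate 3 against replicate 1 none was called higher (background 3.69%) or lower (background 5.71%). Furin, whose product activates Mmp14 and Mmp11, had 2417, 2958 and 3674 normalized counts. Replicate 1 was lowest and replicate 3 highest as for Mmp14, whereas Mmp11 was highest in replicate 2. Replicate 3 was highest for 27.8% of genes with a mean of at least 10. Plg itself had 2, 0 and 7 reads.

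Of the AP-1 genes, 0 of 7 were highest in replicate 3, against 27.8% of genes with a mean of at least 10. Fosl1, the gene of Fra-1, had a range of 1.22-fold and Jun of 1.62-fold, both with replicate 1 highest and replicate 2 lowest. In replicate 2 against replicate 1 the exact binomial test called Junb and Jund lower, out of 7 tested (background 11%). In replicate 3 against replicate 2, Junb was called higher (background 7.29%) and Fosb lower (background 9.33%).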
